A study of Drosophila melanogaster with 10 samples.

Results

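The genes described are those of Drosophila chromosome 4 that were measured in sorted Kenyon cells of dSERT16 mutant and dSERT4 control flies. They are the rows with FlyBase gene identifiers that the authors' deposited expression table places on chromosome 4, without the transcription factor genes ey, toy and onecut, the synaptic and signaling genes unc-13, Syt7, Cadps, mGluR and CaMKI, and genes named as ribosomal proteins, respiratory chain and ATP synthase subunits, dpr proteins or long noncoding RNAs. This left 71 of the 87 chromosome 4 genes among the 9388 genes of that table, and 16 were left out. An Ensembl annotation of the BDGP6 build placed all 71 on chromosome 4, between positions 879 and 1230713, with 66 as protein coding and 5 as antisense RNAs. The annotation lists 118 genes on chromosome 4, so the 71 genes are those of the deposited table and not the whole chromosome.

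Both genotypes were female flies taken on the day of eclosion (day 0), and both carried Mef2(P247)-gal4 driving UAS-nls.GFP, which marks Kenyon cells, the intrinsic neurons of the mushroom body. Homozygous dSERT16 flies carry an imprecise P-element excision at the serotonin transporter gene that removes a non-coding exon and upstream DNA. The background-matched dSERT4 flies carry a smaller deletion at the same gene. Kenyon cell subtypes are not labelled equally by this driver, and α'/β' cells are under-represented. Brains without optic lobes were pooled, dissociated and sorted for GFP, and bulk SMART-seq libraries were made from 5 samples of each genotype, 1 of each on each of 5 collection dates. Replicate numbers 1 to 5 follow the dates. Replicate 1 of both genotypes is the pair that the study set aside, so the genotypes were compared over replicates 2 to 5 (4 samples each), and p-values measure the spread between such pooled collections.

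Chromosome 4 is the smallest chromosome of the fly. Its gene-rich arm is packed in chromatin that carries heterochromatin protein HP1 and histone H3 lysine methylation, yet its genes are transcribed. The protein Pof, which binds nascent RNA of this chromosome, and the methyltransferase eggless act on the whole chromosome, which is also known for tolerating the loss or gain of a copy. Its genes include several developmental regulators, such as the Hedgehog effector ci and the Wnt effector pan, and signaling genes used in neurons and glia.

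Between 18446396 and 69997102 reads per sample were counted on features, and 1.12% to 1.45% of them fell on the 71 genes. The 10 Kenyon cell markers examined (ey, dac, prt, Mef2, Fas2, sNPF, dnc, rut, Pka-C1 and mub) summed to between 17714 and 22074 CPM (counted reads scaled to 1 fixed total in every sample), and none was called between genotypes or in replicate 1. Glial transcripts were present as well. The 9 glial markers summed to 907 to 1535 CPM in dSERT4 replicates 2 to 5 and to 1028 to 1557 CPM in dSERT16 replicates 2 to 5, and to 509 and 309 CPM in replicate 1 of dSERT4 and dSERT16. Of these markers alrm, moody and Tret1-1 had 0 reads in the 10 samples. In the strand-specific columns alrm again had 0, and moody and Tret1-1 had 4021 and 1660. The libraries did not mark strand, with 48.3% to 49.9% of the reads in those columns on the first strand. Such reads can therefore belong to an overlapping gene on the other strand, and the levels of moody and Tret1-1 are uncertain. Markers of fat body and blood cells summed to at most 5.80 CPM and those of muscle to at most 19.5 CPM in any sample.

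Most of the 71 genes were expressed at moderate to high level in the sorted cells. In TPM (a level per transcript length, scaled to a fixed total in each sample) as deposited by the authors, 60 of the 71 genes (84.5%) reached a dSERT4 mean of at least 1 and 50 (70.4%) a mean of at least 10, against 83.4% and 60.5% of all 9388 genes. The median was 48.5 TPM, against 25.6 TPM for all genes and 22.2 to 27.1 TPM for the genes of 2L, 2R, 3L, 3R and X. All 87 chromosome 4 genes had a median of 60.8 TPM. These shares and medians are descriptions, and no difference from the other arms was tested. On CPM per kilobase of exon, here without TMM scaling, the median of the 71 genes was 2.40 times that of all genes, and on TPM it was 1.89 times.

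**Figure D1:**
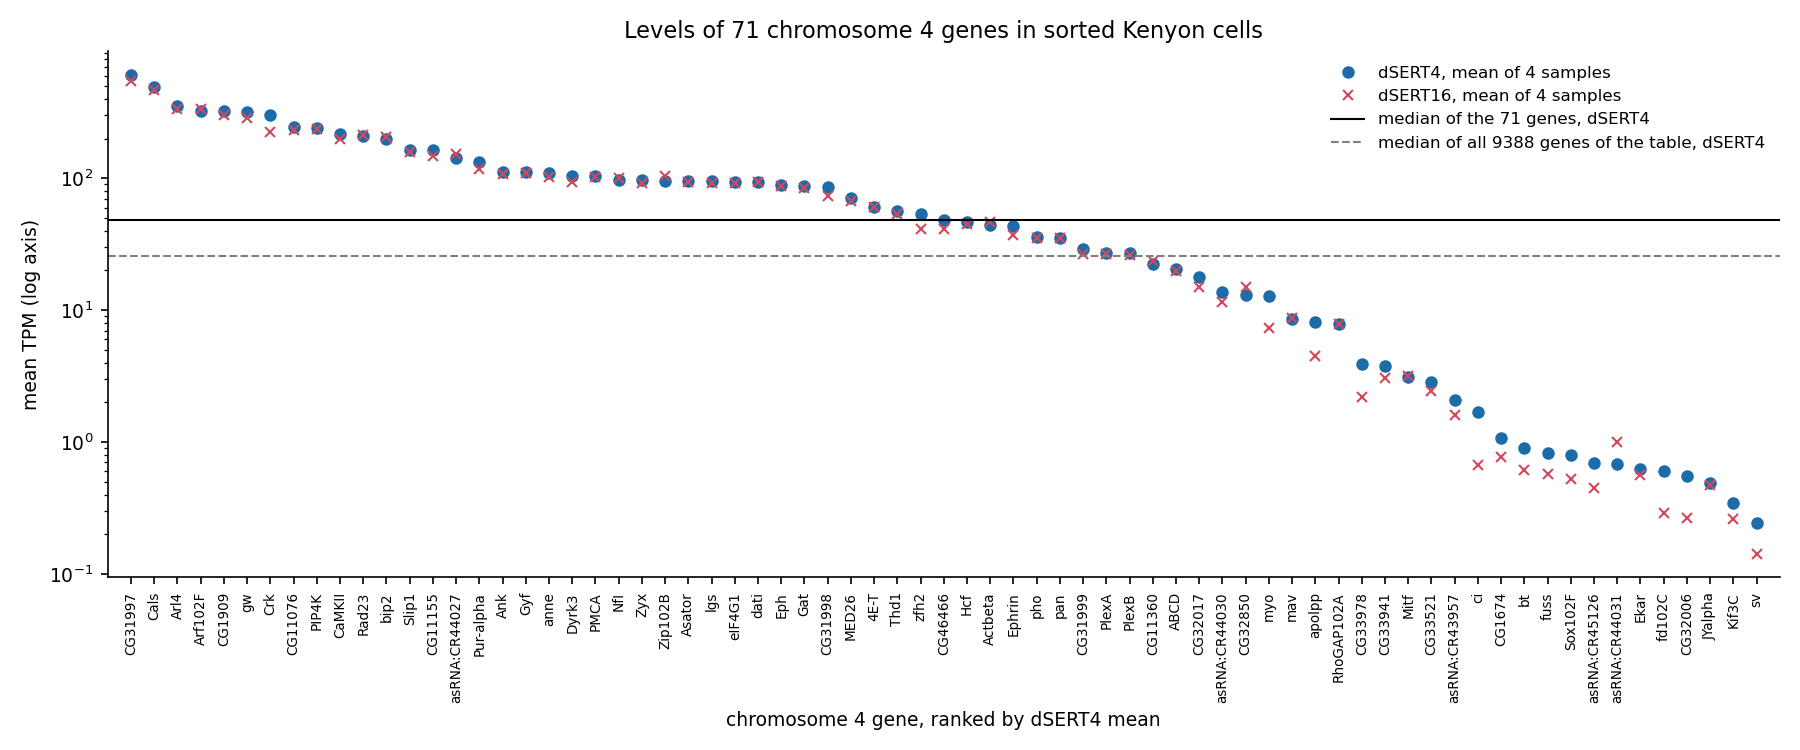
Mean TPM (log axis) of the 71 chromosome 4 genes in dSERT4 (circles) and dSERT16 (crosses), 4 samples each, ranked by the dSERT4 mean, with the median of these genes at 48.5 TPM (solid line) and that of all genes at 25.6 TPM (dashed line). The dSERT4 means run from 611 TPM for CG31997 to 0.244 TPM for sv, and the marks of the genotypes lie apart mainly among the genes below both medians.

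The genes with the highest levels came from several functions. CG31997, whose role is not described here, led with 611 ± 155 TPM (SD, n = 4) in dSERT4. Cals, calsyntenin-1, a cadherin-type membrane protein of synapses, followed with 494 ± 101 TPM, and the small GTPases Arl4 and Arf102F stood at 352 ± 87.5 and 327 ± 57.2 TPM. CG1909 reached 326 ± 28.9 TPM. The gene gw encodes GW182, the partner of Argonaute in silencing by microRNAs, and reached 321 ± 29.5 TPM. Crk, an SH2-SH3 adaptor of receptor signaling, had 303 ± 80.2 TPM and CG11076 had 244 ± 21.7 TPM. Neighbours in this order differed by less than the larger of their standard deviations, apart from Cals and Arl4, whose means differed by more than either.

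Levels by role were as follows, again as dSERT4 means in TPM. The 17 transcription and chromatin genes had a median of 46.4 TPM. Among them bip2, the TFIID subunit Taf3, was highest at 197 TPM, and Pur-alpha, a nucleic acid binding protein of neurons, stood at 134 TPM. The adaptor lgs, which joins β-catenin to its transcription partners, stood at 95.0 TPM and its partner pan at 35.0 TPM. The Hedgehog effector ci was at 1.68 TPM, and the developmental regulators Sox102F, fuss, fd102C and sv lay under 1 TPM. In the 6 guidance genes and adaptors the median was 127 TPM, from 494 TPM for Cals to 27.1 TPM for PlexB, a semaphorin receptor like PlexA (27.3 TPM).

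The receptor Eph stood at 89.6 TPM and its ligand Ephrin at 43.8 TPM. The TGF-β family ligands were lower, with Actbeta, an activin, at 44.1 TPM, myo, myoglianin, at 12.8 TPM and mav, maverick, at 8.59 TPM. CG11155, a kainate-type glutamate receptor subunit, reached 163 TPM, and the related Ekar 0.624 TPM. PMCA, the calcium pump of the plasma membrane, stood at 105 TPM, the zinc transporter Zip102B at 96.2 TPM and the GABA transporter Gat at 87.9 TPM. The calcium/calmodulin kinase CaMKII, known for its part in memory, reached 216 TPM and the lipid kinase PIP4K 240 TPM. The muscle gene bt, a titin-like protein, was at 0.909 TPM, and the motor gene Kif3C at 0.343 TPM.

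The levels of the chromosome 4 genes shifted as a set from sample to sample. For every feature the log2 CPM in a sample was set against its own mean over the 10 samples, and the median of this deviation was taken over the 68 of the 71 genes that passed the filter on low counts. In dSERT4 replicates 1 to 5 the median was 0.15, 0.12, -0.11, 0.18 and -0.14, and in dSERT16 replicates 1 to 5 it was 0.02, -0.21, 0.08, -0.06 and -0.04. The samples furthest apart were dSERT4 replicate 4, with 57 of the 68 genes above their own mean, and dSERT16 replicate 2, with 10 of the 68. Over the same 10 samples the median of each of 2L, 2R, 3L, 3R and X stayed between -0.01 and 0.05, and between 48.0% and 58.1% of their features lay above their own mean. These arms hold 1445 to 2133 features each, so their medians vary less by sampling than a median over 68 genes, and a set of neighbouring genes of like number elsewhere was not examined.

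**Figure D2:**
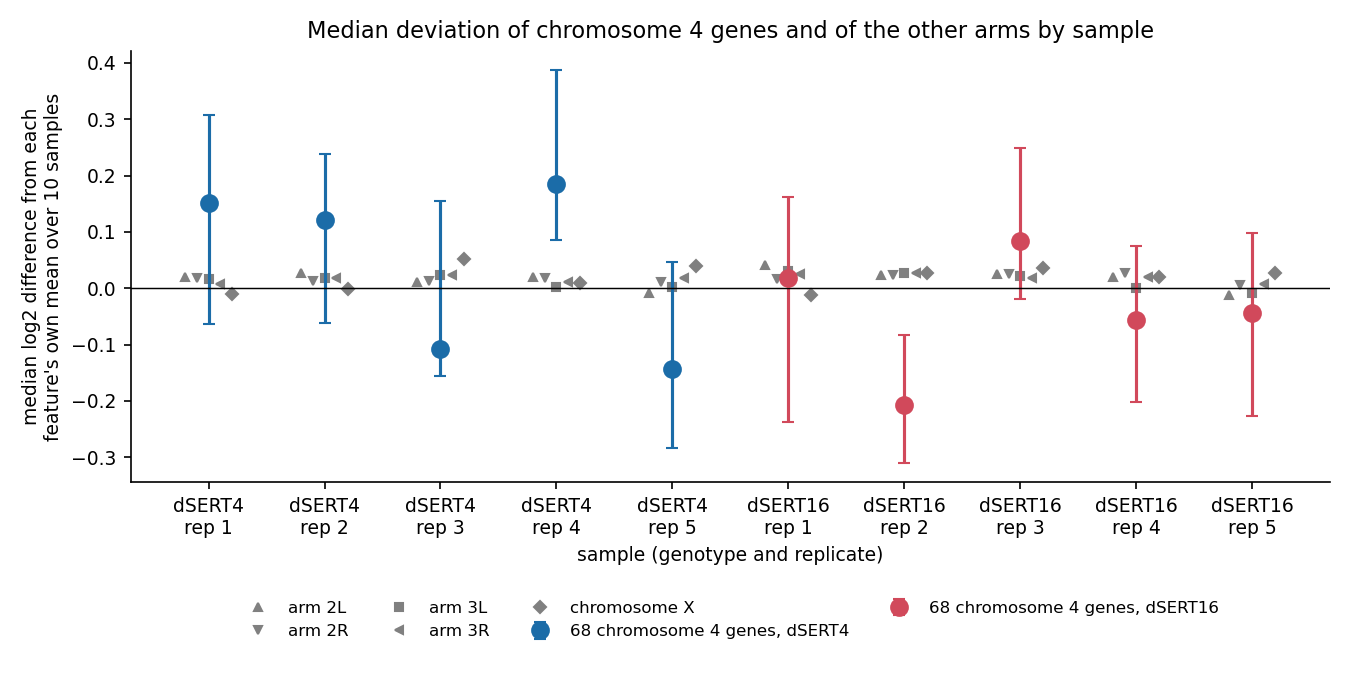
Median log2 deviation from each feature's own mean over 10 samples, by sample, for 68 chromosome 4 genes (coloured circles, bars from the lower to the upper quartile) and for the features of 2L, 2R, 3L, 3R and X (grey marks). The chromosome 4 medians run from -0.21 in dSERT16 replicate 2 to 0.18 in dSERT4 replicate 4, while the other arms stay between -0.01 and 0.05.

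This pattern was not limited to low counts or to one length of gene. Among the 46 genes with a mean log2 CPM over 5 the medians ran from -0.18 to 0.17. By total exon length, those of these 46 genes under 2500 bases, from 2500, from 4000 and from 6000 bases upward (10, 8, 12 and 16 genes) had medians of 0.11, 0.09, 0.19 and 0.19 in dSERT4 replicate 4 and of -0.18, -0.13, -0.21 and -0.16 in dSERT16 replicate 2. Those samples were chosen as the extremes over all 68 genes, so the signs in the length classes follow in part from that choice. Features of the other chromosomes in the same length classes and with a mean log2 CPM over 5 had medians between -0.09 and 0.09 in every sample. The 15 left-out chromosome 4 genes that passed the filter had medians of 0.11, -0.065, -0.09, 0.08 and -0.17 in dSERT4 replicates 1 to 5 and of 0.11, -0.09, 0.06, 0.04 and 0.03 in dSERT16 replicates 1 to 5. These had the sign of the 68 genes in 7 of the 10 samples and the opposite sign in dSERT4 replicate 2 and dSERT16 replicates 4 and 5. Cals is an example among abundant genes. It stood at 1520.5, 1461, 1009, 1430.4 and 1001 CPM in dSERT4 replicates 1 to 5 and at 1562, 949, 1513, 1127 and 1138 CPM in dSERT16 replicates 1 to 5. Each genotype held high and low samples of Cals.

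Depth moved in part with the shift. The 4 deepest libraries (48440880 to 69997102 counted reads) all had medians above 0, and 5 of the 6 others (18446396 to 29161988 reads) had medians below 0, the exception being dSERT4 replicate 4 with 19855011 reads. That library also had the highest share of unmapped reads, 14.5%. The Pof transcript stood at 40.9, 26.7, 25.2, 19.3 and 27.2 CPM in dSERT4 replicates 1 to 5 and at 30.7, 33.0, 27.9, 27.0 and 39.4 CPM in dSERT16 replicates 1 to 5. Pof was lowest in dSERT4 replicate 4 and highest in dSERT4 replicate 1, the samples with the highest and the next highest median of the 68 genes. The part of depth, unmapped reads or Pof in the shift was not tested.

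The sign of the genotype difference over the chromosome differed between dates. Within dates, the median log2 difference of the 68 genes (dSERT16 minus dSERT4) was -0.16, -0.29, 0.17, -0.24 and 0.07 for replicates 1 to 5, with 48, 58, 22, 55 and 26 of the 68 genes lower in dSERT16. The median over all features lay between -0.0021 and 0.0055 on these dates.

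The comparison of dSERT16 with dSERT4 asked which genes differed between these lines. The paper proposes that some dSERT16 differences derive from the altered DNA of that line. Such differences and those of transporter loss cannot be told apart in this comparison. No chromosome 4 gene was called. Of the 68 genes tested, 0 passed an adjusted p of 0.05 in edgeR's quasi-likelihood test, against 43 of 8690 features tested (0.495%, with 0.230% lower and 0.265% higher in dSERT16). At an unadjusted p under 0.05 there were 5 genes, zfh2, myo, apolpp, ci and Crk, all with lower values in dSERT16, against 7.01% of all features in either direction and 3.49% lower. The genotypes did not overlap in 2 genes, zfh2 and myo, both lower in dSERT16, against 4.87% of all features in either direction and 2.38% lower. DESeq2 called 1 of the genes, myo, where it called 1.46% of all features and 0.708% as lower. With the collection date as a block edgeR called 1, apolpp, against 0.621% of all features and 0.322% as lower. With all 5 pairs it called 0, against 0.756% of all features and 0.344% as lower. With all 5 pairs and the block it called 2, zfh2 and apolpp, against 1.08% of all features and 0.584% as lower. The count at an unadjusted p under 0.05 fell to 2 without dSERT16 replicate 5 and to 3 without dSERT16 replicate 2 or 4, where 5.70%, 6.48% and 6.61% of all features had such a p. The count of genes without overlap was 8 without dSERT16 replicate 3 and 5 without dSERT4 replicate 2 or 4, where the share of all features without overlap was higher too (8.87%, 8.89% and 7.98%).

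The 68 fold changes were small. Their median log2 fold change was -0.03, with 45 negative and 23 positive, against 0.00 for all 8690 features, of which 4342 were negative. Without dSERT16 replicate 2, the sample in which the chromosome 4 genes were lowest, the median was 0.02. Of the 68, 53 (77.9%) lay within 0.25 of 0 and 36 (52.9%) within 0.1, against 67.1% and 37.6% of all features. The values ran from -1.28 for ci to 0.24 for CG32850, and the median standard error was 0.14. In all 4 same-date pairs 9 genes were lower in dSERT16 and 0 were higher, against 8.73% and 8.99% of all features. The 9 were zfh2, myo, apolpp, ci, CG31998, gw, bt, CG1674 and sv.

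**Figure D3:**
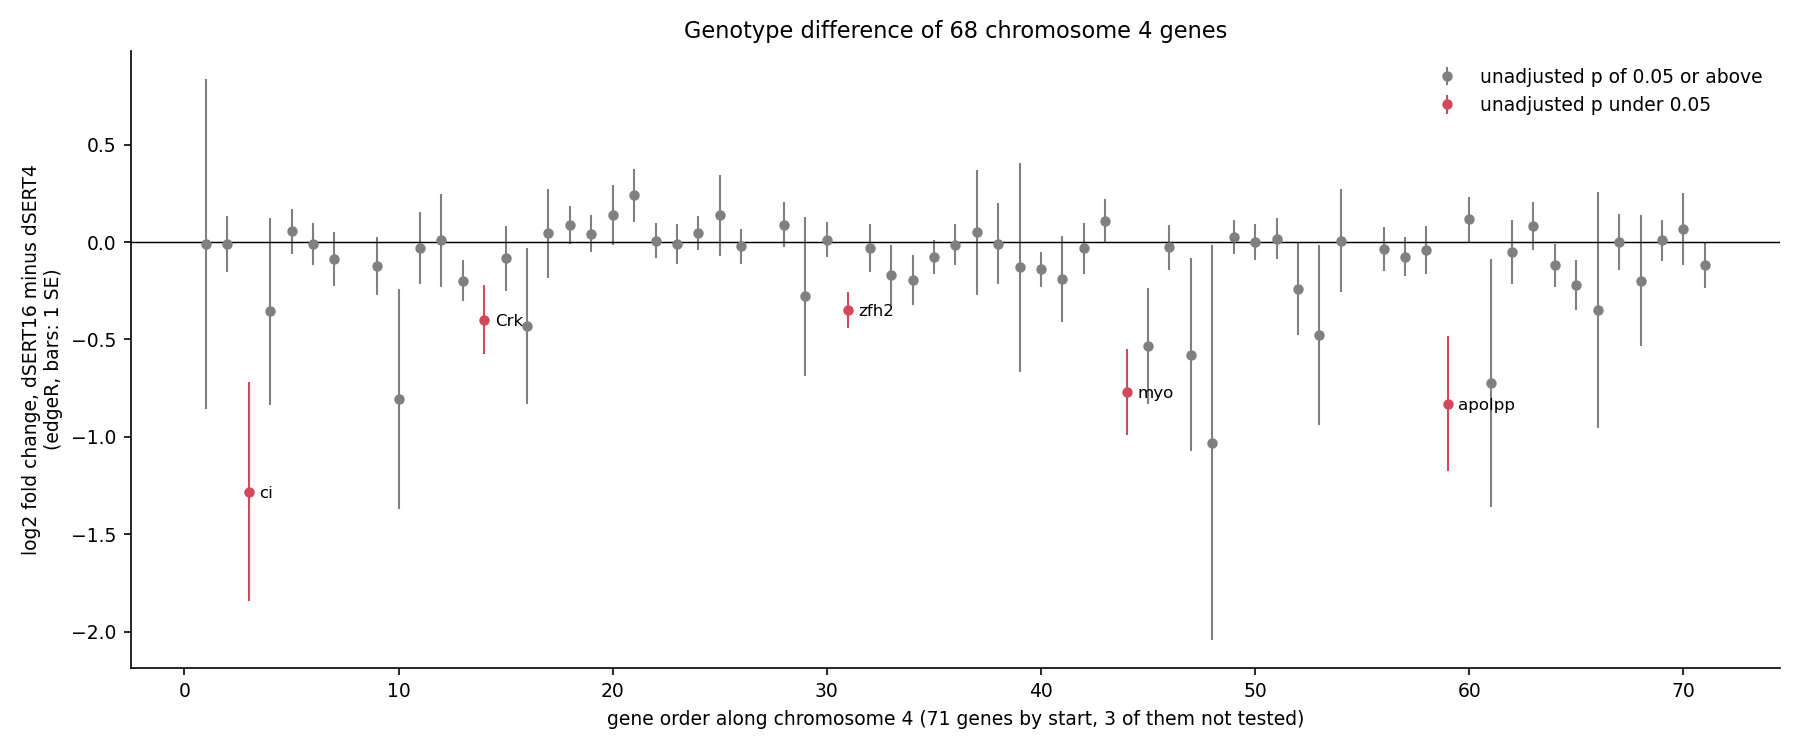
Log2 fold change of dSERT16 against dSERT4 (edgeR, bars 1 SE, replicates 2 to 5) for the 68 tested genes in their order along chromosome 4, with the 5 genes at an unadjusted p under 0.05 in red. Most values lie within 0.25 of 0, and the 5 named genes, from -0.35 for zfh2 to -1.28 for ci, are spread along the chromosome.

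The gene zfh2 (FBgn0004607, chromosome 4, 501810 to 540874, BDGP6, forward strand) encodes a zinc finger homeodomain transcription factor known from wing and nervous system development, and it had the lowest p of the 68. It stood at 437, 472, 472, 536 and 516 CPM in dSERT4 replicates 1 to 5 and at 322, 427, 357, 349.5 and 434 CPM in dSERT16 replicates 1 to 5. Every dSERT16 sample lay below every dSERT4 sample, replicate 1 included, though 437 and 434 CPM almost met. Over replicates 2 to 5 the means were 499 ± 31.8 CPM in dSERT4 and 392 ± 44.9 CPM in dSERT16 (SD, n = 4), a log2 fold change of -0.35 (SE 0.09) with an adjusted p of 0.164 in edgeR. With the date as a block and all 5 pairs edgeR called it, at -0.37 and an adjusted p of 0.0391. Exons of zfh2 share 2325 bases with Thd1, the thymine DNA glycosylase gene, on the other strand, whose log2 fold change was -0.03.

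The gene myo (FBgn0026199, chromosome 4, 690686 to 696055, reverse strand) encodes myoglianin, a TGF-β family ligand made by glia and muscle that is known to act on mushroom body neurons when they are remodelled. It stood at 10.4, 15.7, 13.3, 15.5 and 20.5 CPM in dSERT4 replicates 1 to 5, and at 1.89, 7.34, 11.07, 11.01 and 8.56 CPM in dSERT16 replicates 1 to 5. The genotypes did not overlap over replicates 2 to 5, but dSERT4 replicate 1 lay below 2 of the dSERT16 samples. The means were 16.2 ± 3.05 and 9.50 ± 1.85 CPM (SD, n = 4), a log2 fold change of -0.77 (SE 0.22, edgeR adjusted p = 0.240). DESeq2 called it with an adjusted p of 0.0204.

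The gene apolpp (FBgn0087002, chromosome 4, 1060969 to 1077273, forward strand) encodes the apolipophorin precursor, the core protein of circulating lipoproteins, made in fat body. It stood at 27.2, 21.9, 30.3, 44.0 and 28.9 CPM in dSERT4 replicates 1 to 5 and at 5.91, 8.49, 13.6, 30.8 and 17.8 CPM in dSERT16 replicates 1 to 5. It was lower in dSERT16 on each of the 5 dates, although dSERT16 replicate 4 lay above 4 of the dSERT4 samples. The log2 fold change was -0.83 (SE 0.35, edgeR adjusted p = 0.639). With the date as a block it was -0.93 (SE 0.18, edgeR adjusted p = 0.0484), and with all 5 pairs and the block -1.18 (SE 0.22, edgeR adjusted p = 0.0296).

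**Figure D4:**
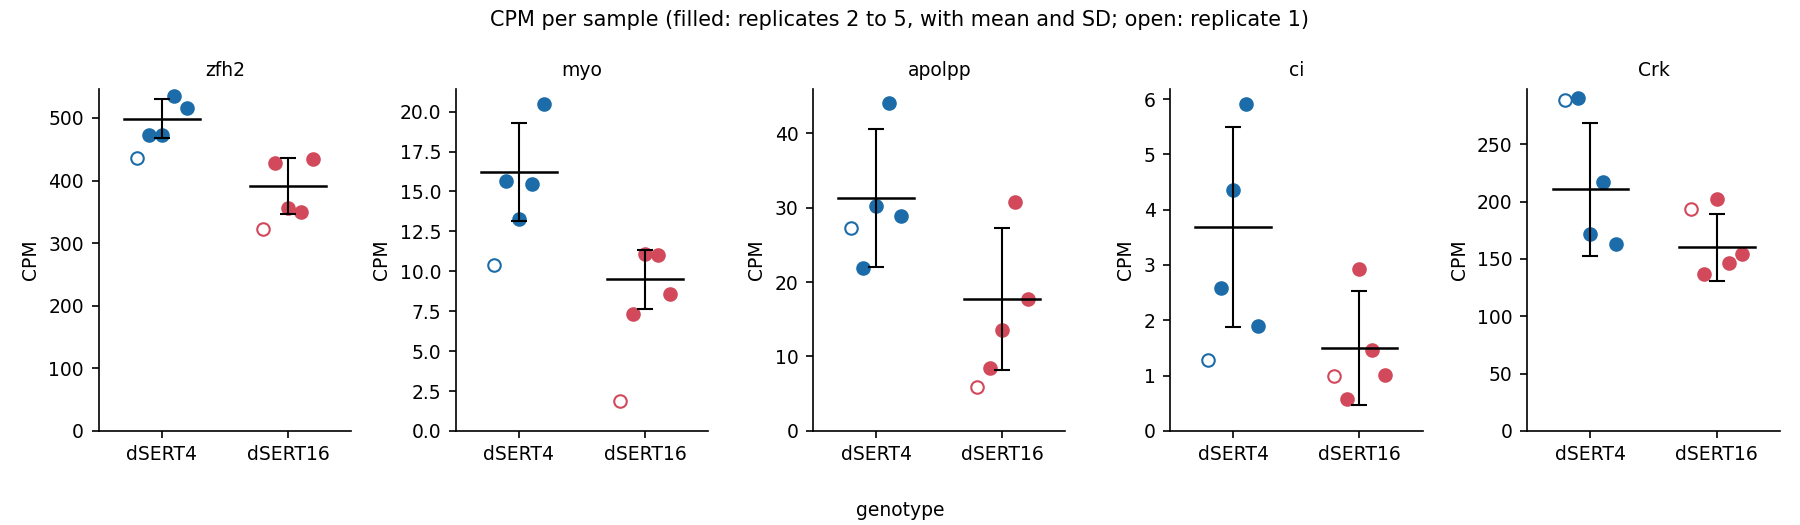
CPM per sample of the 5 genes at an unadjusted p under 0.05, by genotype, with replicates 2 to 5 as filled points, their mean and SD as black lines and replicate 1 as open points. The zfh2 points run from 437 to 536 CPM in dSERT4 and from 322 to 434 CPM in dSERT16. Those of myo overlap only once replicate 1 is counted, and those of apolpp, ci and Crk overlap within replicates 2 to 5.

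The gene ci (FBgn0004859, chromosome 4, 47710 to 57041, reverse strand) rested on few reads, with counts of 39 to 130 in the dSERT4 samples and of 15 to 154 in those of dSERT16. It stood at 1.27, 2.58, 4.36, 5.91 and 1.89 CPM in dSERT4 replicates 1 to 5 and at 0.992, 0.574, 2.93, 1.46 and 1.01 CPM in dSERT16 replicates 1 to 5. The genotypes overlapped, and the log2 fold change was -1.28 (SE 0.56, edgeR adjusted p = 0.656). With the strand-specific columns summed it was -0.79 (edgeR adjusted p = 0.827). Crk (FBgn0024811, chromosome 4, 210224 to 213165, forward strand) stood at 288, 290.2, 172, 217 and 163 CPM in dSERT4 replicates 1 to 5 and at 193, 137, 202, 146 and 154 CPM in dSERT16 replicates 1 to 5. The high samples of Crk were dSERT4 replicates 1 and 2, and the rest of both genotypes overlapped. Its log2 fold change was -0.40 (SE 0.18, edgeR adjusted p = 0.693), and without dSERT4 replicate 2 it was -0.20 (edgeR adjusted p = 0.785).

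In bulk samples fewer cells of a type and less RNA per cell cannot be told apart, and myo, apolpp and bt are genes with known expression outside neurons. Beside their values, the summed glial markers of replicates 2 to 5 overlapped between the genotypes (907 to 1535 and 1028 to 1557 CPM), and so did those of fat body and blood cells (0.388 to 4.73 and 1.52 to 5.80 CPM) and of muscle (4.65 to 11.7 and 6.92 to 19.5 CPM). No marker list had a gene called between genotypes. The 6 glial markers tested had a median log2 fold change of -0.02, with 3 lower in dSERT16, from -0.35 for the glial transcription factor repo to 0.68 for axo (edgeR adjusted p = 0.805 and 0.735). The part of these cells in the 3 genes was not tested.

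By role, no list had a gene called. In the 17 transcription and chromatin genes the median log2 fold change was -0.03, with 11 negative, and 2 (zfh2 and ci) had an unadjusted p under 0.05. The Wnt effectors pan and lgs had values of 0.06 and -0.02, pho, the Polycomb recruiter, 0.00, and the Mediator subunit MED26 -0.03. In the 6 guidance genes and adaptors the median was -0.02, with Eph at -0.01, PlexA at 0.01 and PlexB at -0.01. The 4 TGF-β and Ephrin ligands had a median of -0.07, from -0.77 for myo to 0.12 for Actbeta. In the 5 transporters, pumps and kainate receptor subunits the median was -0.01, with PMCA at 0.01 and CG11155 at -0.12.

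The 5 kinases and lipid signaling genes lay between -0.12 for Dyrk3 and 0.05 for RhoGAP102A, with PIP4K at 0.01, and CaMKII stood at -0.08. The 3 translation and RNA control genes were close to 0, with the initiation factor scaffold eIF4G1 at 0.00 (SE 0.09), 4E-T at 0.02 and gw at -0.14. Of the 2 genes of protein turnover, the proteasome shuttle Rad23 was at 0.04 and CG32850, the RING finger gene Rnf11, at 0.24 (SE 0.14, edgeR adjusted p = 0.820), the largest increase among the 68. With the strand-specific columns summed its value was 0.02 (edgeR adjusted p = 0.998). The 4 muscle, cytoskeleton and lipid carrier genes had the lowest median, -0.44, with Ank, an ankyrin, at -0.01, Kif3C at -0.35, bt at -0.53 (SE 0.30, edgeR adjusted p = 0.820) and apolpp at -0.83. For CG31998, the log2 fold change was -0.20 (SE 0.10, edgeR adjusted p = 0.789). The 22 tested genes in no role list had a median of -0.09.

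The smallest standard error of a log2 fold change was 0.09, found for zfh2, gw, CG1909, lgs, Asator, dati, Gyf, PMCA and eIF4G1. Apart from zfh2 (-0.35), gw (-0.14) and CG1909 (-0.08), their fold changes lay between -0.02 and 0.05. The biological coefficient of variation was 0.151 in the median over the 68 genes and 0.197 over all features. At a log2 CPM over 5 it was 0.129 for both the 46 chromosome 4 genes and the 4033 features at that level. A p that misses the threshold does not show that a gene was equal between genotypes.

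In replicate 1 against replicates 2 to 5, with genotype as a covariate, 1 of the 68 genes was called, Gat (FBgn0039915, chromosome 4, 629691 to 635350, forward strand), against 84 of 8726 features (0.963%, and 0.756% lower in replicate 1). Gat takes up GABA, and in the fly brain it is known from glia. It stood at 14.5, 110.1, 142, 137 and 79.5 CPM in dSERT4 replicates 1 to 5 and at 8.48, 134, 108, 144 and 80.3 CPM in dSERT16 replicates 1 to 5. Replicate 1 of both genotypes lay far below every other sample, and the genotypes overlapped in replicates 2 to 5. The mean was 11.5 CPM in replicate 1 and 117 ± 26.6 CPM (SD, n = 8) in the rest, a log2 fold change of -3.36 (SE 0.32, edgeR adjusted p = 4.83e-04), and lower in 2 of 2 samples. Between genotypes its log2 fold change was -0.01 (SE 0.21).

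**Figure D5:**
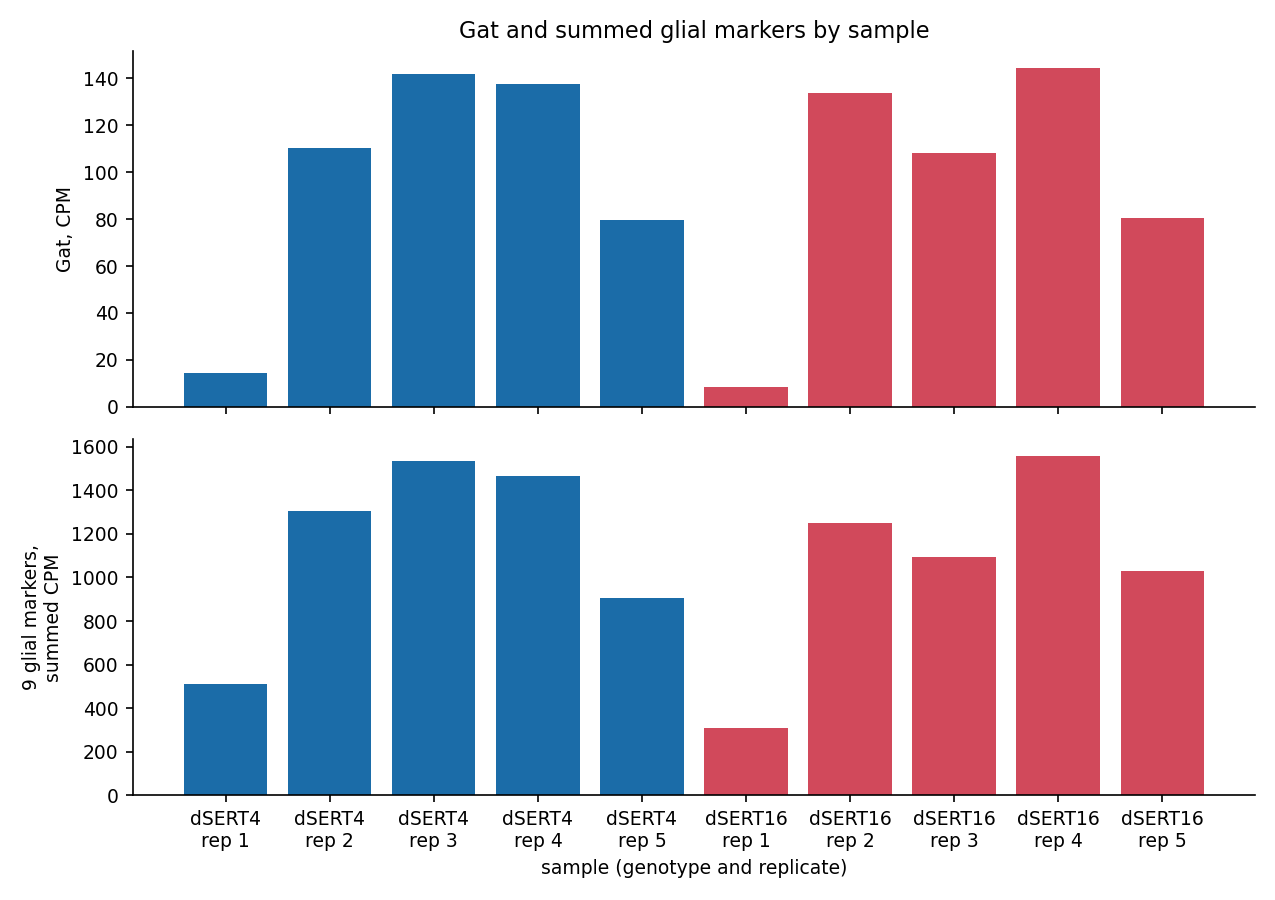
CPM of Gat (upper bars) and summed CPM of 9 glial markers (lower bars) in each of the 10 samples, dSERT4 in blue and dSERT16 in red. Replicate 1 of both genotypes is low in both, with Gat at 14.5 and 8.48 CPM against 79.5 to 144 CPM in the rest, and the markers at 509 and 309 CPM against 907 to 1557 CPM.

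The glial markers moved in the same samples as Gat. Of the 6 glial markers tested all 6 had negative log2 fold changes in replicate 1 with a median of -2.40, and repo, Eaat1, Gs2 and wrapper were called, Eaat1, the glial glutamate transporter, at -3.40 (edgeR adjusted p = 6.56e-05). None of the 10 Kenyon cell markers was called. Among the other samples, both Gat and the summed markers were lowest in replicate 5 of dSERT4 (79.5 and 907 CPM) and next lowest in replicate 5 of dSERT16 (80.3 and 1028 CPM). The part of glial cells in the Gat difference was not tested.

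The other chromosome 4 genes differed less in replicate 1. At an unadjusted p under 0.05 there were 13 of the 68, 6 higher and 7 lower, against 15.0% of all features. The median log2 fold change was 0.12, with 43 genes positive and 25 negative, against -0.01 over all features. After Gat the lowest p was that of myo, at -1.32 (SE 0.36, edgeR adjusted p = 0.106), and without dSERT4 replicate 1 it was called, at -2.32 (edgeR adjusted p = 0.0174). DESeq2 called 4 of the genes, all lower, Gat, myo (adjusted p = 0.00343), sv (adjusted p = 0.0116) and the antisense RNA asRNA:CR44027 (adjusted p = 0.0183), against 4.88% of all features and 3.60% as lower. The last was also called by edgeR without dSERT4 replicate 2, at -0.98 (adjusted p = 0.0496).

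Some chromosome 4 genes lie over one another, which limits counts made without strand. Of the 71 genes, 26 share exon bases with another annotated gene, and reads in such stretches were not counted. In 14 genes the sum of the strand-specific columns exceeded the unstranded count by over 1.2 times and in 9 by over 2 times. The largest ratios were 158 for asRNA:CR44031, 62.8 for asRNA:CR45126, 13.6 for CG33521, 10.6 for fuss and 5.61 for Kif3C. The levels of these genes are uncertain. Kif3C shares exon bases with no other gene of the Ensembl annotation, which need not be the release behind the counts. CG32850, which overlaps PMCA over 3107 bases, had a ratio of 2.77. The ratio was 1.01 for zfh2, 1.09 for apolpp and 1.65 for ci. Over the 10 samples myo had 3897 reads without strand and 3899 with it, and Gat had 29086 and 29088.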

How the data were processed

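Per the labels, alignment was by STAR against dm6 (BDGP6). The authors deposited counts of uniquely mapped reads per gene (23882 features a sample, whole numbers). The STAR version and the annotation release are not given in the sources used here. The authors also deposited TPM for replicates 2 to 5, beside their own DESeq2 fold changes and p-values, which were not used. Here the unstranded counts, without the unmapped, multimapping, featureless and ambiguous reads, were tested over all features with edgeR 4.0.16 in R 4.3.3 (filterByExpr at its default count limits of 10 and, in total, 15, TMM, robust quasi-likelihood, Benjamini-Hochberg, called at an adjusted p under 0.05). CPM values, apart from CPM per kilobase of exon, use TMM library sizes over 10 samples, and log2 CPM a prior count of 2. The genes asRNA:CR44031, asRNA:CR45126 and CG32006 did not pass the filter.

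The genes and role lists were chosen with earlier results of these data known. The named genes are those called, the 8 with the lowest p, the 8 with the highest TPM, members of the role lists and the extremes of fold change. Samples of a date are paired by the labels. Their deviations from the genotype means correlated at 0.217, 0.104, 0.121, 0.0956 and 0.0546 in replicates 1 to 5. Alternatives were DESeq2 1.42.0, its size factors in edgeR, other filters, all 5 pairs, the date as a block, the sum of the strand columns, an adjusted p under 0.1 and leaving out each sample. The fits were tested on simulated counts. Positions come from an Ensembl annotation of BDGP6. No sequence was analysed here.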

Additional observations from a re-analysis of the deposited data

Results flagged for a closer look

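One sample stood far from the others of its genotype. CG32850, the RING finger gene Rnf11, stood at 66.9 CPM in dSERT16 replicate 3 and at 56.8 to 57.6 CPM in dSERT16 replicates 2, 4 and 5. The gap to the nearest sample was 0.919 of the range, above Dixon's limit of 0.829 for 4 samples. This was 1 of 36 groups examined, and chance gives about 1 in 20. Without that sample the log2 fold change of the gene was 0.18 in place of 0.24 (edgeR adjusted p = 0.843). CG32850 shares exon bases with PMCA.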

How the results depend on the processing

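In the genotype comparison the number of genes called was 0, but 1 with DESeq2 (myo), 1 with the replicate block (apolpp) and 2 with the replicate block and all 5 pairs (zfh2 and apolpp). The block changed no other call. Leaving out each of the 8 samples gave 0 to 0 calls. The 5 genes at an unadjusted p under 0.05 (7.01% of all features) became 3 without a filter on low counts (7.33%). With the block and all 5 pairs they became 8 (10.8%), and on leaving out a sample 2 to 6 (5.69% to 8.12%). The 2 genes without overlap became 1 with all 5 pairs, with or without the block (2.70% of all features), and 2 to 8 on leaving out a sample (6.60% to 8.89% of all features). The median log2 fold change of the 68 genes ran from -0.12 to 0.02 on leaving out a sample and from -0.08 to -0.03 otherwise. In replicate 1 DESeq2 called 4 genes in place of 1, against 4.88% of all features. Leaving out a sample of replicates 2 to 5 gave 1 to 2 genes, against 45 of 8989 to 136 of 8870 features.

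Fold changes near 0 changed sign: CG11076 from -0.04 to 0.016 with all 5 pairs and 0.011 with the block and all 5 pairs, and eIF4G1 from 0.00075 to -0.0018 with DESeq2, -0.0037 with its size factors, -0.0082 with at least 10 counts in every sample, -0.040 with all 5 pairs, -0.033 with the block added and -0.00062 with the strand columns. On leaving out a sample the ranges that crossed 0 were -0.15 to 0.14 for Gat, -0.23 to 0.043 for CG31997, -0.19 to 0.046 for Cals, -0.19 to 0.11 for Arl4, -0.0057 to 0.18 for Arf102F, -0.12 to 0.0018 for CG1909, -0.12 to 0.029 for CG11076 and -0.050 to 0.063 for eIF4G1. The increase of CG32850, 0.24, was 0.02 and the decrease of ci, -1.28, was -0.79 with the strand columns, which count reads that overlapping genes share. The cause of the other shifts was not tested.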

Other observations

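The levels did not change along the chromosome in one direction. In 3 successive stretches of the chromosome (24, 24 and 23 of the 71 genes by position) the median dSERT4 level was 40.7, 55.3 and 44.1 TPM, with 17, 17 and 16 genes at a mean of at least 10 TPM. The median log2 fold change of dSERT16 against dSERT4 in these stretches was -0.01, -0.08 and -0.05.

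Of the 6 genes known to act on chromosome 4 as a whole that were listed (Pof, egg, wde and the genes of HP1a, Su(var)3-9 and Su(var)3-7), 5 were tested between genotypes and 0 were called by edgeR. Pof had a log2 fold change of 0.37 (SE 0.17, edgeR unadjusted p = 0.0459, adjusted p = 0.698), and the genotypes overlapped. The HP1a gene stood at 0.04 and wde, the partner of eggless, at 0.10. Su(var)3-9 had 0 reads, in the strand-specific columns too. The annotation release behind the counts is not given, so this 0 is not read as a lack of transcript. On egg 449 reads were counted without strand and 24639 in the strand-specific columns, so its level is uncertain.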
